A study of Mus musculus with 6 samples.

Results

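The genes described here are the subunits of the respiratory chain and of the mitochondrial ATP synthase, followed through the lymphocytes and dendritic cells of mouse pancreatic lymph nodes. They were chosen by name alone. Feature rows were taken whose symbols begin with Ndufa, Ndufb, Ndufc, Ndufs, Ndufv, Uqcr, Atp5, mt-Nd, mt-Co, mt-Cytb or mt-Atp, with Cox followed by a digit from 4 to 8, or that read Sdha, Sdhb, Sdhc or Sdhd, and assembly factors named Ndufaf and pseudogenes were left out. This gave 98 of 31053 features, 85 of them encoded in the nucleus and 13 on the mitochondrial genome. Complex I was represented by 38 nuclear and 7 mitochondrial genes, complex II by 4 nuclear genes, complex III by 8 nuclear genes and mt-Cytb, complex IV by 18 nuclear and 3 mitochondrial genes, and the ATP synthase by 17 nuclear and 2 mitochondrial genes.

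Complexes I and II pass electrons from NADH and succinate to ubiquinone, complex III passes them on to cytochrome c, and complex IV hands them to oxygen. Complexes I, III and IV pump protons across the inner membrane, and the ATP synthase uses the returning protons to make ATP. All complexes but complex II are built from subunits of both genomes: the mitochondrial transcripts are cut from long polycistronic precursors, whereas each nuclear subunit has its own promoter and is imported. Resting lymphocytes have a modest respiratory demand, and activated lymphocytes enlarge their mitochondrial content while they grow and divide.

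Single-cell RNA-seq on the 10x platform was performed on pancreatic lymph nodes from 3 mice in each of 2 groups. All 6 mice carried a floxed gene, and 3 of them also carried CD4-Cre, a transgene that drives recombination in developing T cells and hence in both CD4 and CD8 T cells. The groups are called Cre-negative and Cre-positive, and mice are numbered 1 to 3 within each. The labels give no strain, sex, age or treatment, the numbers do not pair mice across the groups, and the floxed gene itself is not reported here. p-values between genotypes measure the spread between these mice. Those between cell classes measure the spread, over the mice, of the class difference within each mouse.

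The 6 libraries held 8209 to 10936 barcodes and 47149014 to 61321105 unique molecular identifiers (UMIs, counts of captured RNA molecules). After removal of cells with fewer than 500 UMIs, fewer than 300 genes or over 10% mitochondrial UMIs, 56310 cells were kept, with a median of 4331 to 5681.5 UMIs per cell. The share of cells over the mitochondrial limit was 9.10%, 4.29% and 5.45% in the Cre-negative mice and 3.62%, 2.81% and 2.74% in the Cre-positive mice, so the filter took a larger share from every Cre-negative library. Cell classes were set by gates on UMIs of lineage genes, none of them a respiratory gene, and 35257 cells fell in a class. Barcodes with UMIs of a second lineage were left out of each gate, no doublet caller was run, and 16 to 39 barcodes were shared between pairs of libraries. T cells by gate had no UMI of the B cell genes Cd79a, Cd79b and Ms4a1, and B cells had none of Cd3d, Cd3e and Cd3g, as the gates required. Of the markers not used to gate plasmacytoid dendritic cells, Bst2 was found in 100% of the cells, Tcf4 in 82.8%, Ccr9 in 80.8% and Klk1 in 76.8%.

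Nuclear and mitochondrial respiratory genes took separate courses through the classes of the lymph node. In conventional CD4 T cells, the nuclear genes together gave 1.61% ± 0.0581 of all UMIs and the mitochondrial genes 4.40% ± 0.323 (SD, n = 6). B cells had a lower nuclear share, 1.53% ± 0.0459, and a higher mitochondrial share, 5.45% ± 0.384 (n = 6). Within mice, the nuclear share of B cells was 0.952 ± 0.0249 of that in CD4 T cells and lower in 6 of 6 mice, and the mitochondrial share was 1.24 ± 0.0306 times as high and higher in 6 of 6. CD8 T cells were at 1.02 ± 0.00979 times the nuclear share and 1.05 ± 0.00941 times the mitochondrial share of CD4 T cells. Regulatory T cells had 1.07 ± 0.0359 times the nuclear share of conventional CD4 T cells in the same mouse, and the mitochondrial ratio was 0.998 ± 0.0254, above 1 in 3 of 6 mice. Ribosomal protein genes made up 29.7% to 31.3% of UMIs in regulatory and 34.7% to 36.9% in CD4 T cells, and shares of a total move with such a large class. Over UMIs outside ribosomal protein genes, a denominator chosen after seeing the data, the nuclear ratio of regulatory to CD4 T cells was 0.987 ± 0.0313, above 1 in 2 of 6 mice, and the mitochondrial ratio 0.920 ± 0.0207, so the higher nuclear share did not hold there. With that denominator CD8 T cells were at 1.08 and 1.12 times the nuclear and mitochondrial shares of CD4 T cells and B cells at 0.876 and 1.14 times, in the same directions as before.

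The nuclear share was highest among T cells in those gated as cycling by Mki67, Top2a, Birc5, Cdk1, Ccna2 and Ube2c. It was 2.31%, 2.54% and 2.34% in the Cre-negative and 2.41%, 2.52% and 2.64% in the Cre-positive mice, 1.54 ± 0.0534 times the share in T cells without a UMI of these genes. The mitochondrial share of the same cells was 1.03 ± 0.103 times that of non-cycling T cells. Outside ribosomal protein genes these ratios were 1.44 ± 0.0583 and 0.964 ± 0.0970. Activated or memory-gated CD4 T cells had 1.22 ± 0.0526 times the nuclear share and 1.07 ± 0.0349 times the mitochondrial share of naive-gated cells. Ribosomal protein genes made up 27.3% to 31.5% of UMIs in the activated or memory gate and 35.7% to 37.5% in the naive gate. Outside them the nuclear ratio was 1.09 ± 0.0490, higher in 6 of 6 mice, and the mitochondrial ratio turned to 0.951 ± 0.0395, higher in 1 of 6.

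Among antigen-presenting cells the balance between the genomes spanned its widest range. Conventional or migratory dendritic cells had 1.20 ± 0.0989 times the nuclear share of B cells and 0.531 ± 0.0763 times the mitochondrial share, the latter lower in 6 of 6 mice. The median dendritic cell had 0.977% to 1.68% mitochondrial UMIs in 5 mice and 3.33% in Cre-positive 3, while the summed shares ran from 2.31% to 3.69%, so the sum lay above the typical cell in every mouse. In B cells the median cell was at 4.80% to 5.78%. Outside ribosomal protein genes the dendritic nuclear ratio was 1.11 ± 0.122, higher in 5 of 6 mice, and the mitochondrial ratio 0.491 ± 0.0700. Monocytes and macrophages lay the same way, at 1.60 ± 0.110 and 0.602 ± 0.0746 times the shares of B cells. Plasmacytoid dendritic cells had 1.80 ± 0.274 times the mitochondrial share of conventional or migratory dendritic cells, higher in 6 of 6 mice, and 1.05 ± 0.100 times the nuclear share, higher in 4 of 6. The number of nuclear UMIs per mitochondrial UMI was thus 0.647 ± 0.0926 in conventional or migratory dendritic cells, 0.762 ± 0.137 in monocytes and macrophages, 0.541 ± 0.0619 in cycling T cells, 0.380 ± 0.0339 in plasmacytoid dendritic cells, 0.368 ± 0.0287 in CD4 T cells and 0.282 ± 0.0167 in B cells (SD, n = 6 each). A mitochondrial share is bounded by the 10% limit on each cell, and with a limit of 5% it was 4.15% in B cells and 3.93% in CD4 T cells.

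**Figure D1:**
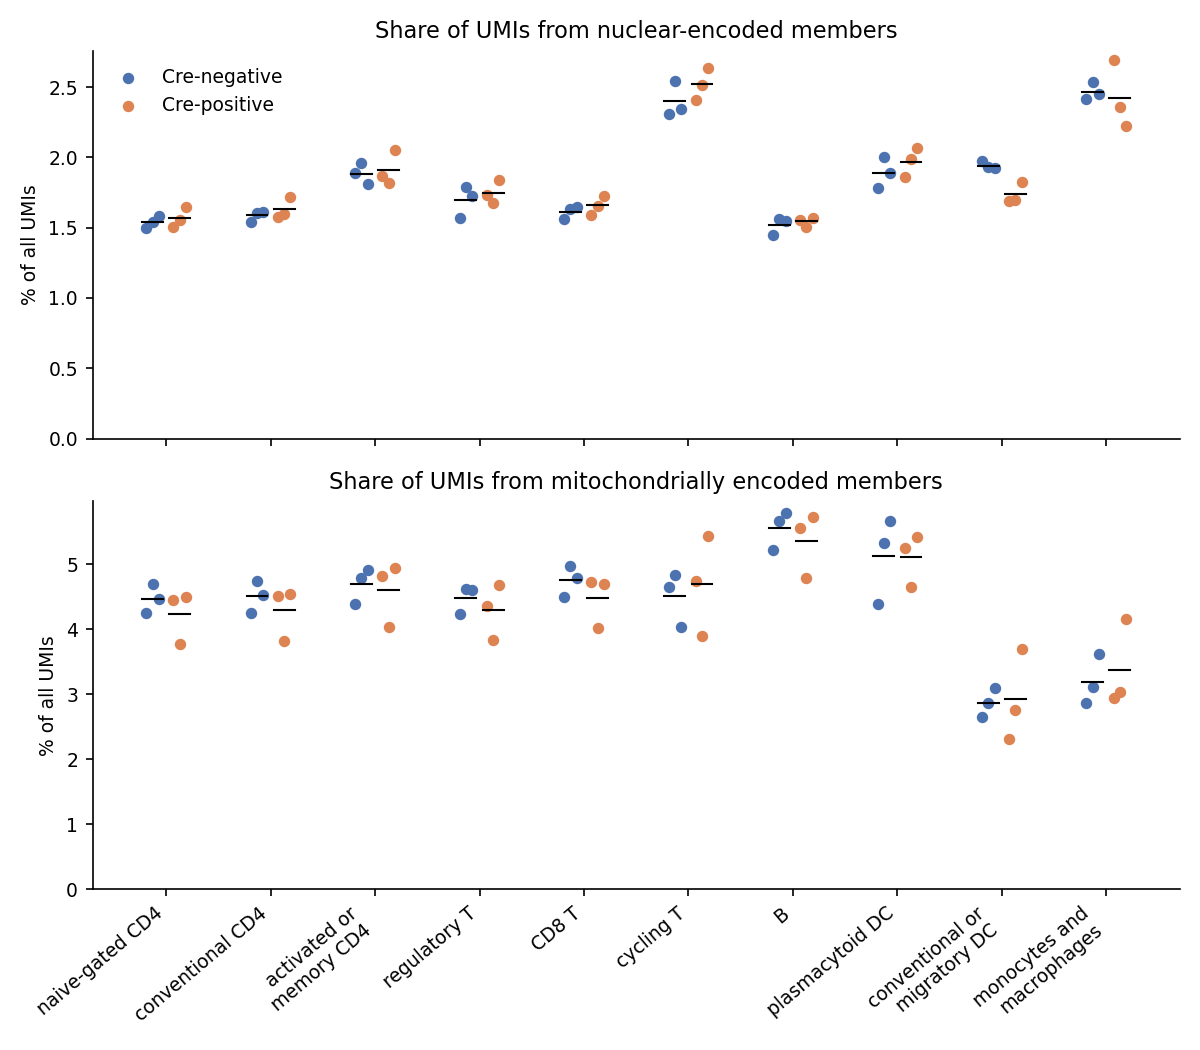
Share of all UMIs from nuclear-encoded (top) and mitochondrially encoded (bottom) respiratory genes, in percent, by gated class. Each point is 1 mouse, blue Cre-negative and orange Cre-positive, and bars are group means of 3 mice. Cycling T cells sit between 2.31% and 2.64% in the top panel, and conventional or migratory dendritic cells are at most 3.69% in the bottom panel, below B cells.

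The design asks whether CD4-Cre in mice with the floxed gene changed these genes, and no respiratory gene passed the test in conventional CD4, regulatory or CD8 T cells or in B cells. In CD4 T cells 0 of 90 tested members passed edgeR's quasi-likelihood test at an adjusted p of 0.05, beside 0.0272% of all genes tested, and none had an unadjusted p under 0.05, beside 5.47% of all genes. In regulatory T cells the count was 0 of 89, with 3 members at an unadjusted p under 0.05, where all genes gave 0% and 5.45%. CD8 T cells gave 0 of 90 and 2 unadjusted, where all genes gave 0.0285% and 7.53%. B cells gave 0 of 90 and 1 unadjusted, where all genes gave 0.0285% and 4.58%. DESeq2 also called 0 members in each of the 4 classes.

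Small leanings, in opposite directions for the 2 genomes, were seen in all 4 classes, and they rested on single mice. Of the nuclear genes tested, 64 of 77 were higher in Cre-positive mice in CD4 T cells, 58 of 76 in regulatory T cells, 62 of 77 in CD8 T cells and 60 of 77 in B cells. Of all genes tested 49.8%, 50.3%, 50.4% and 49.4% were higher and 50.2%, 49.7%, 49.6% and 50.6% lower. The median log2 fold changes were 0.04, 0.06, 0.05 and 0.04. The mitochondrial genes were lower for 13, 10, 13 and 13 of 13, with medians of -0.07, -0.04, -0.08 and -0.05. Without Cre-negative 1, the library with the most cells over the mitochondrial limit, nuclear genes were higher for 40 of 77, 35, 37 and 21 in the same order of classes. Without Cre-positive 3 they were higher for 34 of 77 in CD4 and 38 of 77 in CD8 T cells. Without Cre-positive 2 the mitochondrial genes were lower for 6, 6, 6 and 5 of 13, and with a 5% mitochondrial limit for 5 of 13 in B cells, where the median was then 0.01. The medians in B cells, a lineage that CD4-Cre is not known to recombine, lay within the range of those in the T cell classes. The difference between the genotype effects in CD4 T cells and B cells was tested itself in edgeR, and 0 members passed (0 at an unadjusted p under 0.05, where all genes gave 0.0254% and 4.64%). For CD8 T cells less B cells 0 members passed as well (2 unadjusted, where all genes gave 0.0176% and 5.12%).

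**Figure D2:**
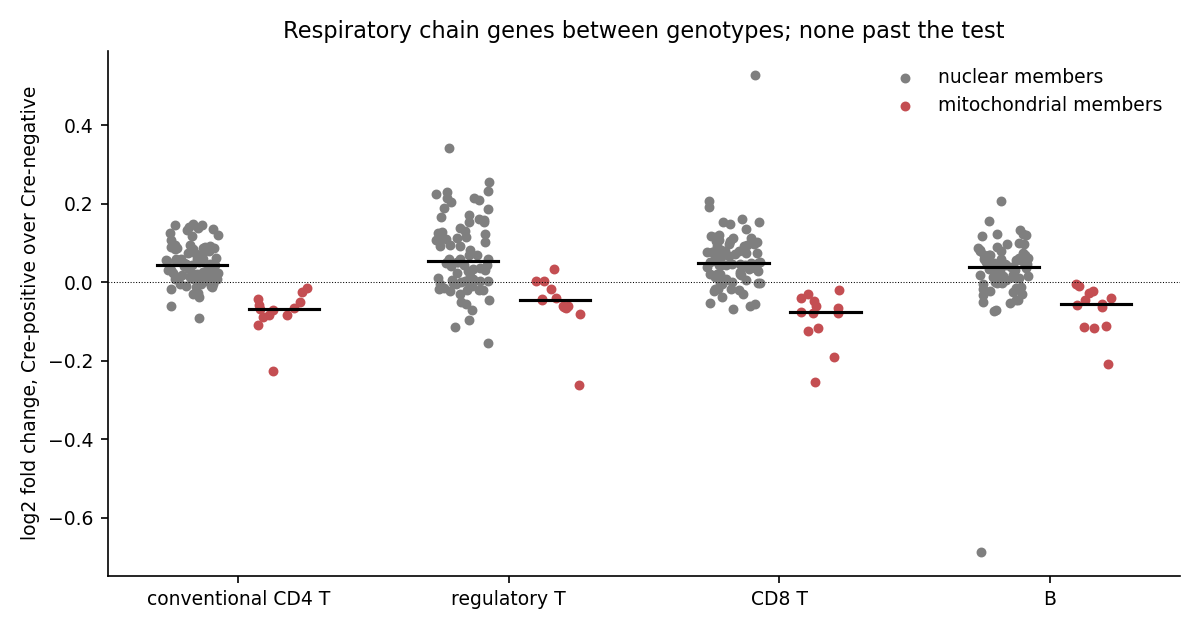
Log2 fold change of each tested respiratory gene, Cre-positive over Cre-negative (3 mice each), in 4 gated classes. Grey points are nuclear and red points mitochondrial genes, and black bars are their medians, 0.04 to 0.06 and -0.08 to -0.04; no gene passed the test.

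Cox5a, which encodes a complex IV subunit on the matrix side, had among the smallest p-values in each class. In CD4 T cells it was at 207, 228 and 238 UMIs per 1000000 UMIs of the class after TMM scaling (CPM) in the Cre-negative mice and at 247, 241 and 257 CPM in the Cre-positive mice. The 2 groups did not overlap, as was true of 3 members in CD4 T cells (Cox5a, Ndufs7 and Ndufb11), all higher in Cre-positive mice, and of 5.29% of all genes in that direction. The log2 difference was 0.15 ± 0.07 (SE), with an adjusted p of 0.896 in edgeR. In CD8 T cells Cox5a was at 225, 254 and 258 against 281, 278 and 291 CPM, a difference of 0.21 ± 0.08 with an unadjusted p of 0.0173 and an adjusted p of 0.574. In B cells it was at 224, 274 and 253 against 321, 279 and 268 CPM, and those groups overlapped (0.21 ± 0.09, adjusted p = 0.997). In regulatory T cells the difference was 0.23 ± 0.11 (adjusted p = 0.860). Other genes of small p were Ndufs7 in CD4 T cells (0.15, adjusted p = 0.896), Ndufv1 in regulatory T cells (0.34, 0.857) and Cox6b2 in B cells (-0.69, 0.997). Ndufs7 and Ndufv1 encode core subunits of complex I, and Cox6b2 a tissue-restricted complex IV subunit.

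mt-Nd3, a complex I subunit of the mitochondrial genome, was the 1 member that passed between genotypes in any alternative. In CD4 T cells it was at 856, 788 and 727 CPM in the Cre-negative and at 594, 515 and 918 CPM in the Cre-positive mice. Cre-positive 1 and 2 were low and Cre-positive 3 was the highest of all 6, and the same order of those 3 mice held in regulatory T cells (576, 515 and 927), CD8 T cells (679, 581 and 1003) and B cells (847, 792 and 1351 CPM). With all mice the log2 difference in CD4 T cells was -0.23 ± 0.25 (adjusted p = 0.951). Without Cre-positive 3 it was -0.51 (adjusted p = 0.00770) in CD4, -0.56 (0.00515) in regulatory and -0.51 (0.0362) in CD8 T cells. mt-Nd3 was picked out here after its values were seen.

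For conventional or migratory dendritic cells only shares were compared between the genotypes. Their nuclear share was 1.97%, 1.93% and 1.92% in Cre-negative and 1.69%, 1.70% and 1.82% in Cre-positive mice, and the groups did not overlap. This was the 1 of 8 classes whose nuclear share did not overlap between genotypes, and it is singled out here after its values were seen; the mitochondrial share overlapped in 8 of 8. Their mitochondrial shares of 2.65%, 2.86% and 3.09% against 2.31%, 2.75% and 3.69% did overlap. No test of a summed share was made. Immediate early genes in these cells summed to 3472 to 6790 unscaled CPM over the 6 mice, and 70 to 209 cells per mouse were behind each share.

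Between cell classes the same mouse gave both values, so each class comparison was fitted on 12 sums with the mouse as a block (edgeR). Large parts of the transcriptome differed between classes, and each count of members is to be read against that background. B cells had higher mitochondrial transcripts than conventional CD4 T cells at 13 of 13 genes, and they had 16 nuclear genes higher and 41 lower of 77, where 36.4% of all genes were higher and 37.6% lower past the test. The mitochondrial median was 0.36 on the log2 scale and the nuclear median -0.09. The complex I genes of the mitochondrion rose most, with a median of 0.54 over 7 genes against 0.27 over the 3 complex IV genes. RNA retained in the nucleus was at 25018 to 28963 unscaled CPM in B cells and 19870 to 23482 in CD4 T cells, with no overlap, and red cell genes at 15.4 to 6422 and 0.824 to 1183. Their part was not tested.

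mt-Nd1, a core complex I subunit, was at 3677 to 4311 CPM in B cells (median 4210) and at 2143 to 2651 in CD4 T cells (median 2472). The ranges did not overlap, and the log2 fold change was 0.74 ± 0.02 (SE, adjusted p = 3.61e-23). mt-Co1, the catalytic subunit of complex IV, was at 6606 to 7653 CPM in B cells and at 5774 to 6969 in CD4 T cells. These ranges overlapped, although each mouse was higher in B cells, and the rise was 0.15 ± 0.01 (adjusted p = 1.80e-10). With a 5% mitochondrial limit mt-Co1 turned to -0.13, 7 mitochondrial genes were higher and 2 lower, and the median was 0.14. Cells over the 10% limit were 13.6% of the B cells of Cre-negative 1.

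Of the nuclear genes of complex I, 21 of 37 were lower in B cells and 7 higher. Of those of the ATP synthase 8 of 16 were lower and 4 higher, where 37.6% of all genes were lower and 36.4% higher. Ndufv3, an accessory subunit near the NADH site, was at 81.5 to 102 CPM in B cells and at 130 to 156 in CD4 T cells, and it fell by 0.60 ± 0.04 (adjusted p = 4.03e-12). Atp5h, a subunit of the ATP synthase stalk, fell from a median of 520 CPM in CD4 T cells to 378 in B cells (-0.45, adjusted p = 7.81e-15). Atp5j2 (-0.41) and Atp5g3 (-0.34), a gene for the proton-carrying c ring, also fell. Other genes went the opposite way. Ndufs8, an iron-sulphur subunit of complex I, was at 80.6 to 103 CPM in B cells and at 54.5 to 67.2 in CD4 T cells, and it rose by 0.59 ± 0.04 (adjusted p = 6.89e-14). Cox8a (0.34), Uqcrb (0.34) and Atp5s (0.32, adjusted p = 0.00604, but 0.0815 with DESeq2) also rose.

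CD8 T cells differed from conventional CD4 T cells by small steps that mostly went up. Of 77 nuclear genes 54 were higher and 0 lower, and 12 of 13 mitochondrial genes were higher, where 23.7% of all genes were higher and 22.6% lower. The medians were 0.11 and 0.20 on the log2 scale. The size of the count rested on the scaling: without scaling factors the median of all genes moved to -0.11, the nuclear split was 18 higher and 17 lower and the nuclear median was -0.0025, with 10 mitochondrial genes higher and 1 lower. Against the median of all genes, the nuclear median lay 0.10 to 0.11 higher and the mitochondrial median 0.18 to 0.20 higher over the scalings, filters and cell sets run. A change of scaling factors shifts all genes nearly alike, so it could hardly move these differences, here or in the comparisons below. Cox8a, a small complex IV subunit, led with 542 to 678 CPM in CD8 and 434 to 523 in CD4 T cells, a rise of 0.40 ± 0.02 (adjusted p = 6.83e-24). Ndufa4 (0.30), known as a complex IV subunit though counted with complex I by its name, Cox5a (0.27) and Cox7a2l (0.25) followed, and 10 of 12 nuclear complex IV genes were higher. mt-Nd1 rose by 0.31, and mt-Nd6, the 1 protein-coding gene of the opposite strand, differed by 0.01 (adjusted p = 0.767), with -0.10 without scaling factors and -0.11 with stricter gates. Immediate early genes, which rise with handling as well as with stimulation, summed to 2833 to 3980 unscaled CPM in CD8 and 5006 to 5553 in CD4 T cells, and RNA retained in the nucleus to 16527 to 19215 and 19870 to 23482, both without overlap. Their part was not tested.

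Regulatory T cells had 10 nuclear genes higher and 26 lower of 77 than conventional CD4 T cells, and 12 of 13 mitochondrial genes lower (of all genes, 18.6% were higher and 18.8% lower). Here the direction of the lists depended on the scaling: without scaling factors the median of all genes was 0.16, and 33 nuclear genes were higher and 4 lower, with 4 mitochondrial genes higher and 4 lower. Without Cre-negative 1 the nuclear genes lower were 17, and without Cre-positive 2 those higher were 6. Relative to the median of all genes, the nuclear median was -0.11 to -0.02 and the mitochondrial median -0.17 to -0.11 in the settings run. Ndufb11, an accessory complex I subunit, was at 191 to 230 CPM in regulatory and 229 to 286 CPM in conventional cells, lower in 6 of 6 mice (-0.34 ± 0.05, adjusted p = 1.03e-07). Cox6a1 (-0.33), the Rieske protein gene Uqcrfs1 (-0.33) and Cox7a2l (-0.28) fell too. Uqcr11 (0.26), Ndufs8 (0.26), Ndufa12 (0.23) and Uqcrb (0.22) rose, and with stricter gates Ndufs8 (adjusted p = 0.0508) and Ndufa12 (0.0662) no longer passed. mt-Nd2 fell most of the mitochondrial genes, by 0.28, and mt-Nd6 was at 0.07 (adjusted p = 0.367). Immediate early genes were higher in regulatory T cells for 9 of 12 and lower for 1, at 7130 to 8392 against 5006 to 5553 unscaled CPM, and their part in these values was not tested.

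Within conventional CD4 T cells, the activated or memory gate had 30 nuclear genes higher and 12 lower of 76 than the naive gate, and 0 mitochondrial genes higher and 6 lower (of all genes, 22.6% were higher and 20.6% lower). Without scaling factors the median of all genes was 0.21, 59 nuclear genes were higher and 1 lower, and 9 mitochondrial genes were higher. Without the cells of most UMIs 14 nuclear genes were higher and 15 lower, and without Cre-positive 3 the mitochondrial genes lower were 10. Relative to all genes, the nuclear median lay 0.02 to 0.15 higher and the mitochondrial median 0.07 to 0.20 lower. Ndufs8 was at 71.1 to 101 CPM in the activated or memory gate and 51.9 to 65.5 in the naive gate, with no overlap (0.49 ± 0.08, adjusted p = 1.86e-06), and Ndufb8 (0.44), Uqcrb (0.38) and Ndufc1 (0.37) rose with it. Cox7a2l, known for a part in supercomplexes of complexes III and IV, went the other way. It was at 359 to 446 CPM against 554 to 650 CPM and fell by 0.56 ± 0.05 (adjusted p = 2.36e-14). Uqcrfs1 (-0.32), Ndufa6 (-0.31), Ndufb4 (-0.28) and mt-Nd2 (-0.22) also fell, but these 4 did not pass without scaling factors. Immediate early genes were higher for 10 of 12, and B cell markers for 3 of 5 tested (Cd74, 2.51), at 340 to 1825 unscaled CPM in the activated or memory gate and 277 to 324 in the naive gate, with Cd79a, Cd79b and Ms4a1 at 0 by the gate. Their part was not tested.

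Cycling T cells had the most nuclear genes higher of the 7 class comparisons. Of 77 tested, 65 were higher and 2 lower than in non-cycling T cells, where 23.2% of all genes were higher and 25.2% lower. The nuclear median was 0.57 on the log2 scale where the median of all genes was -0.11 and that of the mitochondrial genes -0.04. Each complex had nuclear members that rose. Higher were 15 of 16 ATP synthase genes (median 0.61), 30 of 37 of complex I (0.50) and 3 of 4 of complex II (0.47). In complex III 7 of 8 (0.63) and in complex IV 10 of 12 (0.76) were higher. Without scaling factors the nuclear split was 67 higher and 2 lower. Cycling cells carried a median of 10649 to 21954 UMIs per mouse against 4480.5 to 5841 in non-cycling T cells, and 28 to 59 cells per mouse were available. The part of depth in the comparison was not tested.

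Cox5a was at 411 to 601 CPM in cycling and at 204 to 257 CPM in non-cycling T cells. Every cycling value was above every non-cycling value, and the log2 fold change was 1.10 ± 0.07 (adjusted p = 1.20e-30). Ndufc1 (1.08), Cox5b (1.03) and Ndufb8 (1.01) rose by similar amounts. The 2 nuclear genes that fell were Cox7a2l and Atp5s. Cox7a2l was at 371 to 472 CPM in cycling and 523 to 594 CPM in non-cycling T cells, a fall of 0.47 ± 0.07 (adjusted p = 4.96e-10). Atp5s, named as a coupling factor of the ATP synthase, was at 1.78 to 6.27 CPM against 6.24 to 8.48 CPM (-1.26 ± 0.37, adjusted p = 0.00271), on few UMIs. Of the mitochondrial genes 2 rose and 2 fell: mt-Nd1 by 0.36 (adjusted p = 0.000177) and mt-Co1 by -0.25 (adjusted p = 8.49e-06) were the extremes. mt-Nd1 was at 3192, 3619 and 2416 CPM in the cycling cells of Cre-negative 1 to 3 and at 3389, 2983 and 4190 CPM in those of Cre-positive 1 to 3. In Cre-negative 3 it was below the 2631 CPM of that mouse's non-cycling cells, and in the other 5 mice it was above. Without Cre-negative 3 the mitochondrial genes that rose were 5. Markers of RNA retained in the nucleus were lower in cycling cells for 2 of 3, at 6573 to 12042 against 19710 to 22934 unscaled CPM, with Malat1 at -1.33, and immediate early genes were lower for 7 of 12. Their part was not tested.

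Conventional or migratory dendritic cells set against B cells gave opposite directions for the genes of the 2 genomes. Nuclear genes were higher for 52 and lower for 4 of 76, and mitochondrial genes were lower for 13 of 13, where 28.6% of all genes were higher and 28.2% lower. The medians were 0.43 and -0.67, with -0.09 over all genes. Without scaling factors the median of all genes was -0.45, the nuclear split was 29 higher and 16 lower, and 13 mitochondrial genes were lower. Without Cre-negative 1 the nuclear genes lower were 10. Relative to all genes the nuclear median was 0.41 to 0.68 higher and the mitochondrial median 0.45 to 0.59 lower over the scalings, filters and cell sets run. Of the nuclear complex IV genes 11 of 11 were higher, with a median of 0.87, beside 23 of 37 for complex I, 7 of 8 for complex III and 10 of 16 for the ATP synthase.

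Cox5a was at 570 to 1024 CPM in dendritic cells (median 920) and at 198 to 284 in B cells (median 239), a rise of 1.85 ± 0.11 (adjusted p = 5.81e-34). Ndufv2, an iron-sulphur subunit of the NADH-oxidising arm of complex I, was at 187 to 280 CPM against 75.7 to 92.5 CPM (1.53 ± 0.12, adjusted p = 4.64e-26). In both genes the lowest dendritic value came from Cre-positive 3 and still lay above every B cell value. Ndufs5 (1.15) and Cox6b1 (1.13) rose as well. The 4 nuclear genes that fell were Ndufs3 (-0.63), Ndufs7 (-0.48), Ndufv1 (-0.48, adjusted p = 0.0318) and Sdhb (-0.40, 0.0149), which are catalytic-core or iron-sulphur subunits of complexes I and II. Ndufv1 (adjusted p = 0.144) and Sdhb (0.0959) did not pass with a 5% mitochondrial limit. mt-Nd2 was at 1283 to 1787 CPM in dendritic cells and at 2842 to 3769 in B cells, a fall of 1.18 ± 0.09 (adjusted p = 5.12e-24). mt-Co1 was the least changed (-0.19, adjusted p = 0.0442) and did not pass with a 5% mitochondrial limit (-0.05, 0.666), with at least 2000 UMIs per cell (-0.13, 0.196), without Cre-negative 2 (0.148) or without Cre-positive 1 (0.183). Dendritic cells had a median of 1744 to 3663.5 UMIs per mouse against 3881.5 to 5138 in B cells, and 10 of 12 immediate early genes were higher in them; RNA retained in the nucleus was at 23409 to 53916 against 25018 to 28963 unscaled CPM; the part of these was not tested.

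Plasmacytoid dendritic cells were compared with conventional or migratory ones in the 5 mice with at least 20 cells, and Cre-negative 1, with 17 plasmacytoid cells, was left out. This comparison shares the conventional or migratory sums with the one against B cells, where they stand on the other side, so the directions of the 2 are not independent. Of 74 nuclear genes 7 were higher and 26 lower, and 10 of 13 mitochondrial genes were higher and 0 lower (of all genes, 26.2% were higher and 28.3% lower). The medians were -0.26 and 0.38. Without scaling factors the median of all genes was 0.51, and the nuclear split turned to 28 higher and 5 lower, with 12 mitochondrial genes higher. Relative to all genes the nuclear median was -0.37 to -0.18 and the mitochondrial median 0.19 to 0.45. Without Cre-positive 2 the nuclear genes higher were 4, and DESeq2 called 4 higher and 17 lower. Of the nuclear complex IV genes 10 of 12 were lower and 1, Cox6a2, was higher, while 0 of the 13 mitochondrial genes were lower. Cox6a2 is also 1 of the 7 nuclear genes counted as higher. It passed the low-count filter only through the plasmacytoid sums (720 to 823 against 0 to 3.12 CPM). Cox5a was at 321, 310, 300, 312 and 260 CPM in plasmacytoid cells against 1030, 914, 1116, 1077 and 646 CPM (-1.65 ± 0.14, adjusted p = 3.66e-11). Every plasmacytoid value was below every conventional one, and Ndufv2 (-1.45), Cox7a2l (-1.07) and Cox6b1 (-0.86) fell with it. Ndufs7 (0.89) and Ndufs3 (0.86) rose, and mt-Nd1 rose by 0.85 (adjusted p = 1.94e-08) while mt-Nd6 was at -0.05 (0.878). The 2 classes also differed in immediate early genes, of which 9 of 11 were lower in plasmacytoid cells (2478 to 3000 against 3472 to 6790 unscaled CPM), and their part was not tested.

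**Figure D3:**
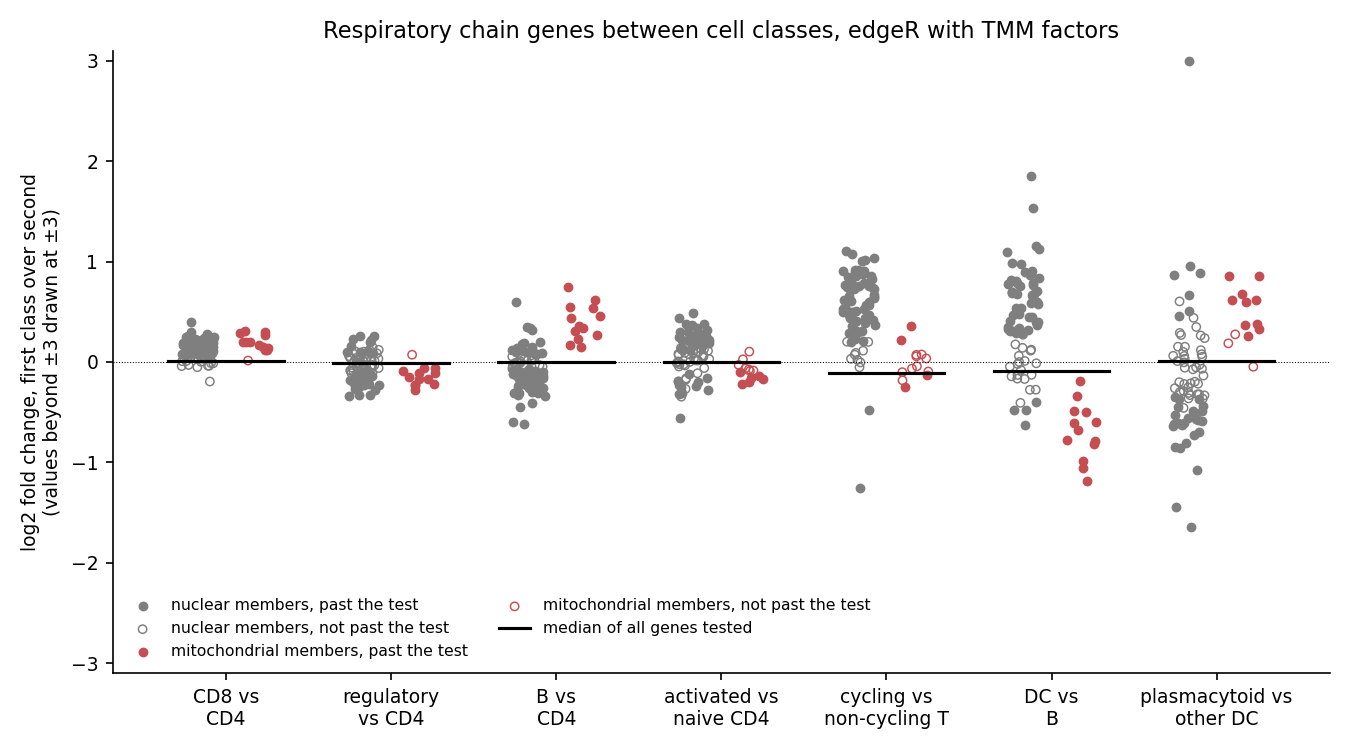
Log2 fold change of each tested respiratory gene in 7 comparisons of gated classes, first-named class over the other, with TMM scaling. Grey points are nuclear and red points mitochondrial genes, filled where past the test, and the black line is the median of all genes. Cycling T cells have 65 of 77 nuclear genes higher, and dendritic cells have all 13 mitochondrial genes lower than B cells. Without scaling factors the balance of the nuclear calls turns round for regulatory T cells (33 higher, 4 lower) and plasmacytoid cells (28 higher, 5 lower).

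The mitochondrial genes did not move as a block, although they come from shared precursors. The ratio of mt-Nd1 to mt-Co1 UMIs needs no scaling between libraries, and it was 0.376 ± 0.0170 in CD4, 0.427 ± 0.0148 in CD8 and 0.335 ± 0.0208 in regulatory T cells (SD, n = 6). It was 0.569 ± 0.0268 in B cells and 0.583 ± 0.0372 in cycling T cells, against 0.382 ± 0.0169 in non-cycling ones. Conventional or migratory dendritic cells had 0.313 ± 0.0180 and plasmacytoid cells 0.450 ± 0.0201. A ratio shows that the 2 transcripts changed unequally and not which of them changed. Their levels are not compared with each other, since capture differs between genes.

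**Figure D4:**
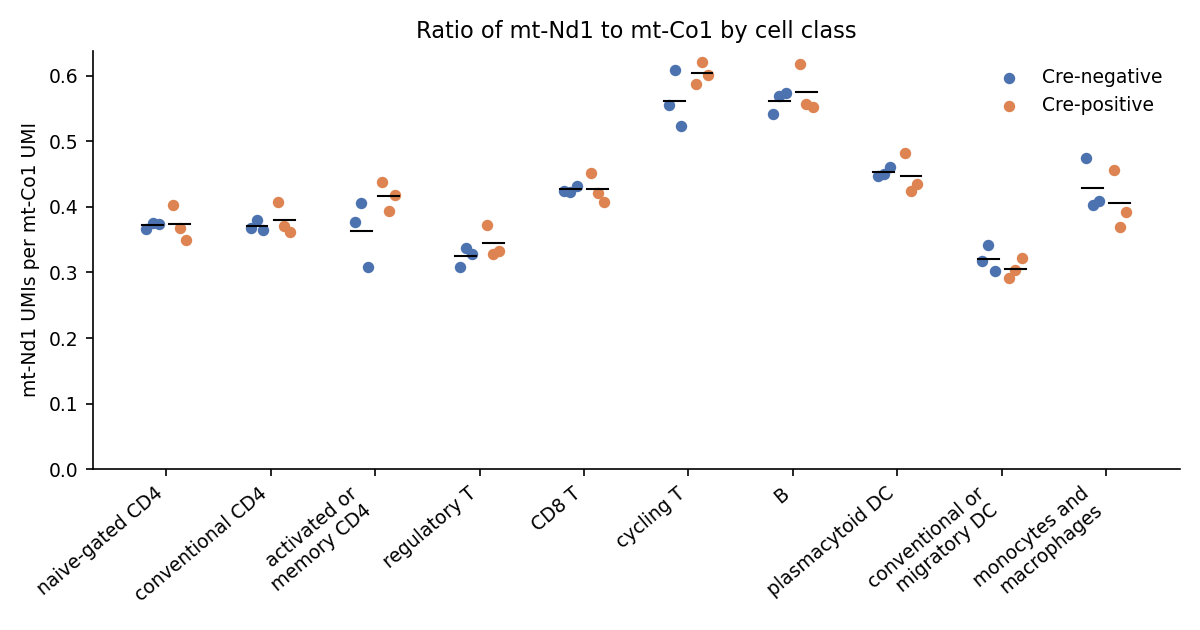
mt-Nd1 UMIs per mt-Co1 UMI by gated class. Each point is 1 mouse, blue Cre-negative and orange Cre-positive, and bars are group means of 3 mice. B cells (mean 0.569) and cycling T cells (0.583) lie above the other classes and conventional or migratory dendritic cells (0.313) lie lowest.

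Complex II, which is entirely nuclear and also serves the tricarboxylic acid cycle, was split by subunit. Sdhd, a membrane anchor, was at 64.7, 92.5 and 52.4 CPM in the cycling T cells of Cre-negative 1 to 3 and at 75.3, 86.4 and 95.4 CPM in Cre-positive 1 to 3, against 38.1 to 47.7 CPM in non-cycling T cells. It rose by 0.86 ± 0.11 (adjusted p = 2.22e-12), and the other anchor Sdhc (0.57) and the iron-sulphur subunit Sdhb (0.37) rose with it. Sdha, the flavoprotein, differed by 0.11 (adjusted p = 0.326). Sdhc was lower in B cells than in conventional CD4 T cells, at -0.35 to -0.28 over the 18 alternatives run, and passed in each. Sdhd was higher in CD8 than in conventional CD4 T cells, at 0.14 to 0.27, and passed in 18 of 18 as well. Sdha fell slightly in regulatory T cells (-0.21), in B cells (-0.12) and in activated or memory CD4 T cells (-0.24). It did not pass without scaling factors in regulatory (-0.05, adjusted p = 0.529) or activated or memory cells (-0.02, 0.836), nor with stricter gates in the latter (-0.09, 0.518), nor with DESeq2 in B cells (-0.11, 0.101). Sdhb was at 138 to 166 CPM in plasmacytoid and at 65.5 to 80.1 CPM in conventional or migratory dendritic cells, with no overlap (0.96 ± 0.19, adjusted p = 7.73e-05). Sdhd was higher in conventional or migratory cells than in B cells (0.81, adjusted p = 2.78e-06). In plasmacytoid against conventional or migratory cells Sdhd was at -0.46, which did not pass (adjusted p = 0.133). Sdha was higher in the plasmacytoid cells, at 0.34 to 1.00 over the 16 alternatives run, but no longer passed in 8 of them.

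Some complex IV subunits exist as a widely used form and a form restricted to tissues such as heart and skeletal muscle, lung or testis. The restricted forms were almost absent from the lymph node, with 1 exception. Cox7b2, Cox8b and Cox8c had 0 UMIs in the 56310 kept cells, Ndufa4l2 had 2, Cox4i2 had 49 and Cox7a1 had 104. Cox6b2 had 607 UMIs and was found in 1.01% of T cells and 0.591% of B cells. Cox6a2, the form of subunit VIa known from heart and skeletal muscle (chr7:128205435-128206387, mm10, minus strand), had 1702 UMIs, and 993 of them were in the 151 cells of the plasmacytoid gate.

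Cox6a2 was found in 129 of 151 plasmacytoid cells, 85.4% with an exact 95% interval of 78.8% to 90.6%. Per mouse it was found in 88.2%, 91.2% and 84.0% of plasmacytoid cells in Cre-negative 1 to 3 and in 85.7%, 86.4% and 78.1% in Cre-positive 1 to 3, from 139, 204, 146, 126, 147 and 231 UMIs. All 6 mice showed it at a like share. The same gene had 4 UMIs in 12789 CD4 T cells, 4 in 8430 CD8 T cells, 3 in 10828 B cells, 2 in 780 conventional or migratory dendritic cells and 2 in 462 monocytes and macrophages. It had none in 1828 regulatory T cells, which allows a share of cells with a UMI of up to 0.164%, and none in 253 cycling T cells, which allows up to 1.19%. These limits cover cells with a captured UMI and not cells that express the gene. The plasmacytoid level of 834 unscaled CPM was 1322 times that of conventional or migratory dendritic cells, with a counting interval of 365 to 10933.

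The contrast was also present at equal depth. With each cell thinned to 2000 UMIs, Cox6a2 was found in 89 of 128 plasmacytoid cells (69.5%, 23 shallower cells left out), in 0 of 442 conventional or migratory dendritic cells (338 left out) and in 0.0079% of CD4 T cells. Median depth before thinning was 7530 to 10535 UMIs in plasmacytoid cells and 4472 to 5812 in CD4 T cells. The part of free RNA in these counts was not tested. Of the Cox6a2 UMIs outside the gate, 610 were in 113 cells with 2 or more Siglech UMIs that carried a gene of another lineage, and 79 of those cells (69.9%) had it. The remaining cells without a Siglech UMI held 76 UMIs in 36 of 55900 cells. The ordinary form, Cox6a1, was between 180 and 291 unscaled CPM in every class and at 228 in plasmacytoid cells, where it was found in 70.9% of cells. In the fitted comparison Cox6a1 was at -0.33 in plasmacytoid cells (adjusted p = 0.0709). It passed as lower with stricter gates (-0.43, 0.0358) and without Cre-positive 1 (-0.41, 0.0447), and was at 0.17 (0.356) without scaling factors, so whether Cox6a1 differed was not settled.

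**Figure D5:**
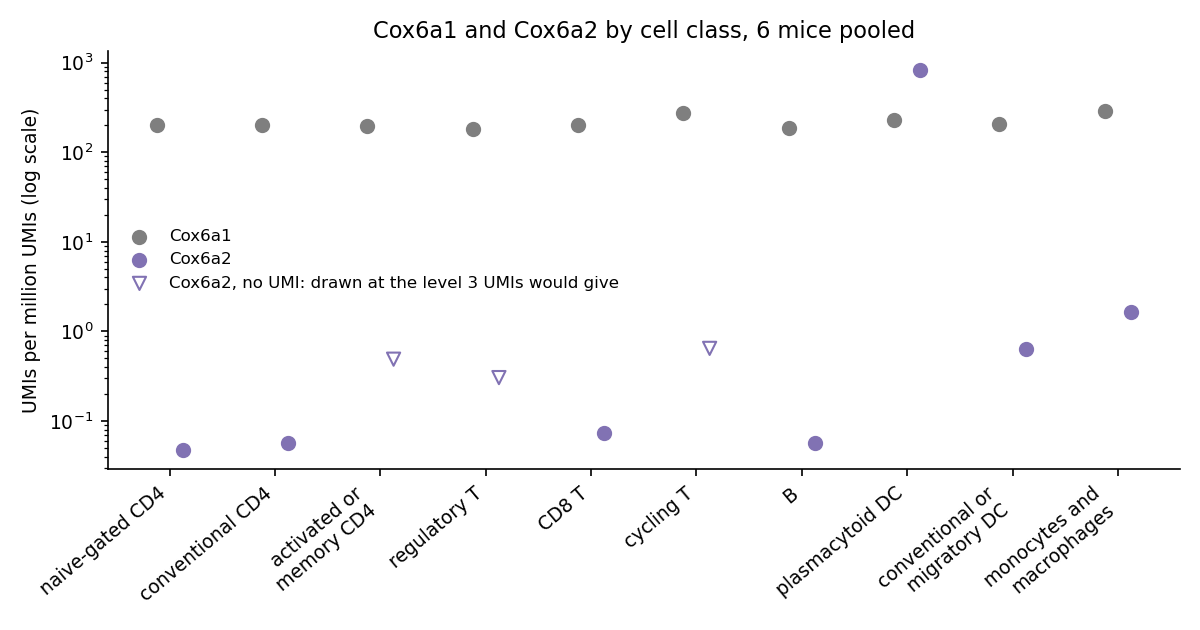
Unscaled CPM of Cox6a1 (grey) and Cox6a2 (purple) by gated class, 6 mice pooled, on a log axis; open triangles mark classes with no Cox6a2 UMI, drawn at the level that 3 UMIs would give. Cox6a2 reaches 834 in plasmacytoid dendritic cells, and Cox6a1 stays between 180 and 291 in all classes.

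The promoters of 4 members are printed for comparison. Cox6a1 is the ordinary form beside Cox6a2. No promoter of Cox6a2 was among those used, so that of Cox6a2 was not searched. Cox6a1 was itself higher in cycling than in non-cycling T cells (236 to 299 against 185 to 216 CPM). It was lower in regulatory than in conventional CD4 T cells (137 to 195 against 191 to 230 CPM). Cox5a had the largest rises in cycling T cells and dendritic cells. Ndufs8 rose in B cells and in activated or memory CD4 T cells, and Cox7a2l fell in cycling T cells. Each is the 250 bases upstream of the start that RefSeq's table gives (GRCm38.p6), 5′ to 3′ in the direction of transcription. For Cox7a2l that start lies 2997 bases downstream of the outer end of the gene in the GENCODE annotation (chr17:83501918-83517330, mm10), so the window is inside that span and the sequence before the outer start was not searched. Capitals mark the motifs searched on both strands: the NRF1 motif (GCGCA, any 1 base, then GCGC), the ETS motif CCGGAAG, the YY1 motif AANATGGCG and the E-box CAGGTG.
Cox6a1 (chr5:115348959-115349208, minus strand): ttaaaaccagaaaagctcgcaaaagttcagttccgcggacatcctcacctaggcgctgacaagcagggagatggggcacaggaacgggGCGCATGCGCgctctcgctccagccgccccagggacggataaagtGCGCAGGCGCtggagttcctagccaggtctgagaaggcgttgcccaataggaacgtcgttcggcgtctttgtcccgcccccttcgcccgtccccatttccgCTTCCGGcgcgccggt
Cox5a (chr9:57520982-57521231, plus strand): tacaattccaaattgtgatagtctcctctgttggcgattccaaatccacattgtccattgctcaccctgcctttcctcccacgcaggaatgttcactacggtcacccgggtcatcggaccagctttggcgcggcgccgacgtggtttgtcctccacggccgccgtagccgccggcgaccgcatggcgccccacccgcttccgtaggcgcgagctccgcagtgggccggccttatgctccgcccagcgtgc
Ndufs8 (chr19:3912775-3913024, minus strand): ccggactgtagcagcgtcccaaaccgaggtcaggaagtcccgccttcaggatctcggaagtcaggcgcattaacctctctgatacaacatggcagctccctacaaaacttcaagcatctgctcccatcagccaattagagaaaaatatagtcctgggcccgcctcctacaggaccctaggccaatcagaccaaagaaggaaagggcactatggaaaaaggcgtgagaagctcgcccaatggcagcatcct
Cox7a2l (chr17:83514334-83514583, minus strand): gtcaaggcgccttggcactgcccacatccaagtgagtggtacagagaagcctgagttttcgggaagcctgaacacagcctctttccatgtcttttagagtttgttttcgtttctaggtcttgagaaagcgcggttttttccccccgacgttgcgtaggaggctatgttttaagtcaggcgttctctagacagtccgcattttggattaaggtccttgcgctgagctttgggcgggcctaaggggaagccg
Cox6a1 held 2 NRF1 motifs and 1 ETS motif, and the other 3 promoters held none of the 4 motifs in this window. Of the 85 nuclear members, 67 had a promoter in the table. The NRF1 motif, read by a known activator of respiratory genes, was in 13 of the 67 (19.4%) and in 4.23% of the 27025 gene promoters of the same length. The ETS motif was in 12 (17.9%, against 7.83%), the YY1 motif in 3 (4.48%, against 1.29%) and the E-box in 13 (19.4%, against 19.4%). A match is a run of letters and does not show binding. The 27025 promoters include those of the members and were not matched to them for base composition or expression.

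Genes that assemble, feed or regulate the chain were counted from lists drawn up beside it. Between genotypes the smallest adjusted p over these lists in the 4 classes was 0.405, for the mitochondrial transcription elongation factor Tefm in CD8 T cells (0.83 ± 0.25, edgeR). In cycling T cells, where 23.2% of all genes were higher and 25.2% lower, antioxidants and transporters were higher for 11 and lower for 0 of 13, with Vdac1, the outer-membrane channel, at 1.40 and Slc25a5, the ADP/ATP carrier, at 0.97. Tricarboxylic acid cycle genes were higher for 10 and lower for 1 of 17 (Fh1, fumarase, 1.26; Cs, citrate synthase, 0.79), and electron carriers and their partners for 10 and 3 of 20 (Etfb 1.39, cytochrome c gene Cycs 0.74). Assembly factors were higher for 15 and lower for 5 of 47, with Ndufaf2 at 1.41 and Uqcc2 at 0.77. Genes that express the mitochondrial genome were higher for 6 and lower for 5 of 29, both below the shares of all genes, with the translation factor Tsfm at 1.07 and Tfam, which packages and transcribes mitochondrial DNA, at 0.64. Among regulators of respiratory genes 0 were higher and 3 lower of 10, with Myc at -0.56 and Ppargc1b at -0.72.

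In B cells against CD4 T cells, where 36.4% of all genes were higher and 37.6% lower, assembly factors were higher for 16 and lower for 15 of 46, near those shares. Genes that express the mitochondrial genome were higher for 11, also near the share of all genes, and lower for 4 of 29. Fh1 (1.81) and Myc (1.25) were higher and Pdha1, of pyruvate dehydrogenase, was lower (-0.87). In dendritic cells against B cells, where 28.6% of all genes were higher and 28.2% lower, genes that express the mitochondrial genome were higher for 3 and lower for 13 of 28, Tfam fell by 1.24, and Myc (-3.03) and Nrf1 (-1.25) fell. Sdhaf1, an assembly factor of complex II, was higher in dendritic cells than in B cells (1.55), in regulatory (1.37) and in activated or memory CD4 T cells (1.02), lower in CD8 T cells (-0.59) and lower in plasmacytoid than in conventional or migratory dendritic cells (-2.44). Most immediate early genes were higher in the first 3 of these comparisons and lower in the last 2, and their part was not tested. In CD8 against CD4 T cells, Slc25a4, another ADP/ATP carrier, was higher (1.00), and Polg, the mitochondrial DNA polymerase, was lower (-0.91).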

How the data were processed

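Raw UMI counts per gene and cell were deposited by the authors for each mouse, made with Cell Ranger 6.1.2 (mm10), as the submitters' processing notes list. The release of the annotation and the treatment of reads shared between copies of a gene are not given in the sources used here. Members, gates, lists and tests were chosen with earlier results of these data known. Cells with at least 500 UMIs, at least 300 genes and at most 10% mitochondrial UMIs were gated on raw UMIs and summed per mouse and class. Sums were fitted with edgeR 4.0.16 (R 4.3.3; filterByExpr, TMM factors, robust quasi-likelihood F test, Benjamini-Hochberg adjustment over all genes tested, 0.05), genotypes on 6 sums without a block and classes with mouse as a block, leaving out mice with under 20 cells of a class. CPM values are scaled within each comparison, so a class differs slightly between comparisons. Fold changes are on the log2 scale. Counts were simulated with 200 changed genes drawn from those with a mean of at least 5 CPM. The genotype fit in CD4 T cells recovered 87% of genes changed 1.5-fold and 100% of those changed 2-fold (11027 genes). It also called 31 unchanged genes, a larger share of its calls than the 0.05 threshold aims at. The real comparison called 3 genes, so an adjusted p of 0.05 needed a smaller unadjusted p there than in the simulation. The recovery rates may therefore overstate what the genotype test could find. The cycling comparison recovered 55% and 87% and called 10 unchanged genes (11222 genes). Named genes were those of smallest p in each genotype comparison, the up to 4 largest nuclear rises and falls with at least 5 CPM in each class comparison, the highest and lowest mitochondrial gene, the restricted isoforms and complex II. Not every gene this rule names is reported here. Alternatives were DESeq2 1.42.0, other mitochondrial and UMI limits, stricter gates, no filter, no mitochondrial genes, a replicate block or no mouse block, each mouse left out and, chosen after seeing the data, no scaling factors and shares over UMIs outside ribosomal protein genes. Intervals and floors cover counting error only. NK cells (4 to 10 per mouse) were not tested.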

Additional observations from a re-analysis of the deposited data

How the results depend on the processing

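Counts, medians, shares and ratios under alternatives were labelled by how far they moved. Of these, 652 stayed within the limit, 53 moved beyond it and 3 ratios of shares changed side of 1. The limit was a set ratio for counts and the SD between mice for the rest. A median that changed sign was not labelled apart. Of the values of named genes, 1711 kept direction and side of the threshold, and 44 no longer passed. Another 19 newly passed, 21 changed sign without passing, and 4 changed sign where the gene passed before or after. Leaving out each mouse gave 0 to 1 members past the test between genotypes in CD4, regulatory and CD8 T cells (0 with all mice) and mitochondrial medians of -0.16 to -0.13 for regulatory T cells. Without the mouse block, 31 members passed in CD8 T cells (66 with it) and 22 in regulatory T cells (48 with it). Stricter gates gave 30 members and a mitochondrial median of -0.13 in regulatory T cells, and 0.23 in plasmacytoid cells, where DESeq2 called 28 members (43 in edgeR). The numbers do not pair the mice, since correlations of same-numbered mice ran from -0.117 to 0.190; with a replicate block 0 members passed in each of the 4 classes.

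Medians below are log2 values, nuclear then mitochondrial. Without scaling factors they were -0.0025 and 0.082 in CD8, 0.11 and 0.018 in regulatory, 0.31 and 0.12 in activated or memory T cells, 0.065 and -1.04 in dendritic cells and 0.24 and 0.88 in plasmacytoid cells. Without the low-count filter they were -0.12 and -0.21 in regulatory, 0.0013 and -0.18 in activated or memory T cells, 0.24 and -0.89 in dendritic and -0.42 and 0.22 in plasmacytoid cells. Without the 2.5% of cells with most UMIs the nuclear median was -0.11 in regulatory and 0.016 in activated or memory T cells, the mitochondrial median 0.42 in B cells, and the nuclear share of cycling T cells 2.19%. With a 5% mitochondrial limit the mitochondrial medians were -0.18 in regulatory T cells, 0.14 in B cells, -0.19 in activated or memory T cells and -0.060 and -0.057 for the 2 differences between genotype effects. The nuclear share of B cells was then 1.61%, and mitochondrial shares were 3.93% in CD4, 3.86% in regulatory, 4.10% in CD8, 4.15% in B, 3.90% in cycling T, 2.18% in conventional or migratory dendritic and 4.12% in plasmacytoid cells. With at least 2000 UMIs per cell the mitochondrial median of plasmacytoid cells was 0.22. Over UMIs outside ribosomal protein genes, the nuclear share relative to CD4 T cells was 1.08 in CD8, 0.987 in regulatory and 0.876 in B cells, and the mitochondrial share 1.12, 0.920 and 1.14; relative to naive-gated cells the activated or memory gate was at 1.09 and 0.951, and relative to non-cycling T cells the cycling ones at 1.44 and 0.964. The nuclear ratio of regulatory T cells and the mitochondrial ratios of activated or memory and cycling T cells thereby changed side of 1. Cox6a1 in CD8 T cells reversed to -0.0025 without scaling factors. mt-Nd6 in CD8 T cells reversed to -0.11 with stricter gates and -0.10 without scaling factors, and mt-Co1 in B cells to -0.13 with the 5% limit; apart from what each setting removes, the cause was not tested.

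The fit without the cells of most UMIs could not be made for cycling T cells, nor that with the 5% limit for plasmacytoid cells, and NK cells were not compared with CD8 T cells, each for too few cells. With 28 to 59 cycling and 17 to 34 plasmacytoid cells per mouse, small changes in genes of low count were not detectable at this depth.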
